A study of Mus musculus with 6 samples.

Results

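Integrins are cell-surface receptors made of 1 alpha and 1 beta subunit, and laminins are secreted proteins made of an alpha, a beta and a gamma chain. The members described here are all probes whose gene symbol in the platform annotation names an integrin subunit or a laminin chain, which gave 34 of the 20289 probes on the array. They represent 31 of 13769 named genes, 22 of integrin subunits and 9 of laminin chains. The genes were measured in urogenital ridges of Mf1 mouse embryos at E11.5, when the ridge is made up of mesonephros, primordial gonad and the coelomic epithelium over them. Wild-type embryos (WT, 3 arrays) were compared with embryos in which both copies of the Wilms tumour gene Wt1 were deleted (KO, 3 arrays), and the comparison asked which transcripts differ when this zinc finger transcription factor is missing. Per the labels, each array carried RNA pooled from 5 embryos (4 female, 1 male) at 11 to 12 tail somites. The series description can be read as 1 pool per genotype measured 3 times, and nothing in the labels says that the pools were separate. The p-values therefore rest on the spread between arrays of a genotype alone, and that spread may be technical.

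Laminins polymerise into the sheet that organises a basement membrane, to which type IV collagen, nidogen and perlecan are bound. Cells hold on to that sheet through laminin-binding integrins, dystroglycan and the Lutheran protein Bcam, whereas other integrins bind fibronectin, vitronectin, collagens or counter-receptors on other cells. In the urogenital ridge, basement membranes underlie the coelomic epithelium and surround the nephric duct, the mesonephric tubules and the blood vessels.

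The values are deposited spot intensities on a linear scale, scaled so that the median probe of an array lies near 1. A probe was tested when its mean log2 level lay above the 25th percentile of all probe means, a limit that corresponds to an intensity of 0.217. Of the 34 probes, 22 were tested, for 21 genes, and 10 genes had no tested probe. A gene was called when its adjusted p in limma, over all 15062 tested probes, was under 0.05, as was the case for 41.3% of those probes. Each gene was counted by its brightest tested probe, by mean log2 level over the arrays of both genotypes. Of the 21 tested genes 7 were called (33.3%), 2 higher and 5 lower in the knockout, while 44.1% of all 10999 tested genes were called, 25.4% as higher and 18.7% as lower. The share of called members was thus no larger than that of the array as a whole. The median log2 change was 0.07 over the tested members and 0.08 over all tested genes.

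The deleted gene served as the check of the labels. On probe 2836 Wt1 read 44.1, 43.6 and 39.1 on the wild-type arrays and 14.3, 15.7 and 14.2 on the knockout arrays, with no overlap (adjusted p = 1.13e-07, limma). Where the probe lies relative to the deleted part is not given in the sources used here. Of the markers of the gonadal primordium, 8 of 9 genes on the array had a mean over both genotypes above the limit for dim probes, and Cbx2 lay under it. Of these 8, 6 fell in the knockout and 1 rose, and their summed intensity was 68.5 to 71.0 in wild type and 35.9 to 37.0 in the knockout. Most of that difference was Amhr2 (30.6 against 0.480), without which the sums were 38.3 to 39.8 and 35.3 to 36.5. Marker lists of other cells also differed. Neuronal and neural crest markers rose at 10 of 13 tested genes, and skeletal muscle markers rose at 7 of 14 and fell at 1. The shares called were 87.5% (gonadal), 76.9% (neuronal) and 57.1% (muscle), beside 44.1% of all tested genes. In whole-tissue RNA, fewer cells of a type and less RNA per cell cannot be told apart. Pearson's r over all tested probes (not independent replicates) was 0.983 to 0.992 between arrays of 1 genotype, and the knockout arrays varied more, with a median SD of log2 values of 0.153 beside 0.0951.

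Among the laminins, Lama1, Lamb1 and Lamc1 were lower in the knockout, and these are the chains of the laminin of early embryonic basement membranes. Lamc1, the gamma chain found in most laminins, read 8.32, 8.60 and 8.19 on the wild-type arrays and 6.23, 4.96 and 4.78 on the knockout arrays. Every knockout array lay below every wild-type array, and the first knockout array was the least reduced. Mean intensity went from 8.37 ± 0.210 to 5.32 ± 0.791 (SD, n = 3 each), which is 1.58-fold lower (log2 change -0.66 ± 0.10, SE, limma, adjusted p = 0.000261). Lama1, the alpha chain of early epithelia, read 12.1, 11.8 and 13.2 in wild type and 6.98, 8.92 and 8.71 in the knockout. Here too the genotypes were separate, but the first knockout array was the most reduced. Lama1 was 1.52-fold lower (12.4 ± 0.719 against 8.20 ± 1.06, SD, n = 3 each, log2 change -0.60 ± 0.10, adjusted p = 0.000466, limma). Lamb1, a beta chain that pairs with several alpha chains, read 2.67, 2.54 and 2.55 against 1.66, 1.81 and 1.98, and was 1.43-fold lower (log2 change -0.51 ± 0.09, adjusted p = 0.00108, limma). Its highest knockout value lay well under its lowest wild-type value.

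The sizes of the 3 falls are set side by side as within-array ratios. Exact permutation of 3 arrays against 3 allows no p under 0.10, so no ratio could have passed at 0.05 and the test does not show that the falls were alike. The within-array log2 ratio of Lama1 to Lamc1 was 0.46 to 0.69 in wild type and 0.16 to 0.87 in the knockout, where the range enclosed that of wild type. Its difference between genotypes was 0.06 (exact two-sided permutation test, p = 0.80). For Lama1 over Lamb1 the difference was -0.09 (exact p = 0.40) and for Lamc1 over Lamb1 -0.15 (exact p = 0.50). These ratios belong to a family of 6 pairs, in which the adjusted p was at least 0.20 for every pair.

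Lama2, the alpha chain of muscle and nerve basement membranes, changed in the other direction. It read 3.91, 4.17 and 3.98 in wild type and 5.44, 4.62 and 4.88 in the knockout. All knockout values were above all wild-type values, with means of 4.02 ± 0.134 and 4.98 ± 0.418 (SD, n = 3 each). The gain was 1.24-fold (log2 change 0.31 ± 0.08, adjusted p = 0.0122, limma), and without wild-type array 1 the adjusted p was 0.0559. The log2 ratio of Lama1 to Lama2 fell by 0.91, from 1.51 to 1.73 in wild type to 0.36 to 0.95 in the knockout (exact p = 0.10, the smallest possible, adjusted p = 0.20). Because Lama1 was lower and Lama2 higher on every knockout array, this ratio had to separate, and its p adds nothing to those calls. The summed intensities of muscle and neuronal markers were also higher, at 66.6 to 68.7 and 49.4 to 50.4 in wild type against 73.3 to 79.6 and 90.1 to 92.3 in the knockout. The muscle list was mixed: 7 of 14 tested genes rose and Des fell 1.80-fold (adjusted p = 8.45e-05, limma). Without the gene that differed most in each list, Tnnc2 and Dcx, the muscle sums overlapped (66.3 to 68.3 against 66.3 to 73.1) and the neuronal sums did not (46.1 to 46.4 against 77.6 to 81.8). Their part in the gain was not tested.

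The remaining laminin chains did not pass. Lamb2, the beta chain of vessels, muscle and glomeruli, had a log2 change of 0.05 ± 0.09 (SE), with 4.97, 4.72 and 5.22 in wild type and 5.74, 4.96 and 4.74 in the knockout (adjusted p = 0.704). The log2 ratio of Lamb1 to Lamb2 was -1.03 to -0.90 in wild type and -1.79 to -1.26 in the knockout, a difference of -0.56 without overlap (exact p = 0.10, adjusted p = 0.20). Lama3 and Lamb3 encode chains of the laminin of skin and other stratified epithelia. Lama3 had wild-type values of 3.66, 4.05 and 3.29 and knockout values of 4.10, 4.13 and 3.99, a log2 change of 0.16 ± 0.09 with adjusted p = 0.184. Lamb3 stayed near the limit for dim probes on all arrays, at 0.224 to 0.358. Lama4, the endothelial alpha chain, and Lamc3 were too dim to be tested, with no value above 0.252. Of the 7 tested laminin genes 3 fell, 1 rose and 3 did not pass, or 57.1% called beside 44.1% of all tested genes (25.4% as higher, 18.7% as lower).

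**Figure D1:**
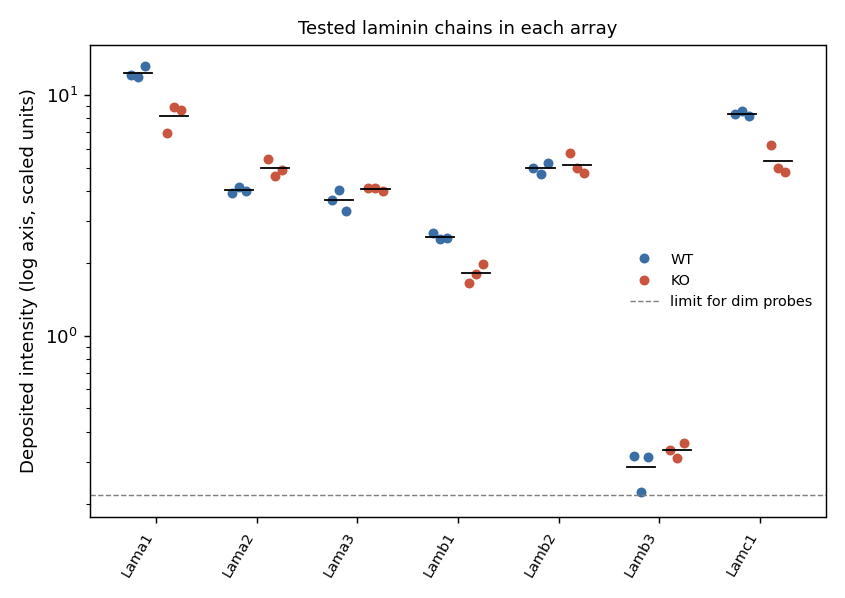
Deposited intensity (log axis) of the 7 tested laminin chains on each array, with the mean of each genotype as a black bar and the limit for dim probes as a dashed line. The knockout points of Lama1, Lamb1 and Lamc1 lie below all wild-type points, those of Lama2 lie above them, and Lama3, Lamb2 and Lamb3 overlap.

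Reference promoters, 250 bases before to 50 after a transcription start, were found in RefSeq for 19 of the 31 genes (21 windows, build GRCm38.p6). None was found for Itga6, Lama1 and Lamc1, the called member genes with the largest falls, so their promoters were not searched. Windows are printed for 2 other genes that fell, Lamb1 and Itgb5, the beta subunit of a vitronectin receptor. They are also printed for 2 that rose, Lama2 and the integrin gene Itga10, to set genes of opposite direction side by side. The motifs searched on both strands were GTGGGAG, GCGTGGGAG (which contains the first) and GCGGGGGCG, G-rich motifs related to those bound by Wt1 and Egr zinc fingers, and the GC box GGGCGG. Capitals mark every match, in the orientation of the gene. Lamb1 lies at chr12:31265043-31265342 (plus strand), Itgb5 at chr16:33829415-33829714 (plus), Lama2 at chr10:27616893-27617192 (minus) and Itga10 at chr3:96645334-96645633 (plus).
Lamb1: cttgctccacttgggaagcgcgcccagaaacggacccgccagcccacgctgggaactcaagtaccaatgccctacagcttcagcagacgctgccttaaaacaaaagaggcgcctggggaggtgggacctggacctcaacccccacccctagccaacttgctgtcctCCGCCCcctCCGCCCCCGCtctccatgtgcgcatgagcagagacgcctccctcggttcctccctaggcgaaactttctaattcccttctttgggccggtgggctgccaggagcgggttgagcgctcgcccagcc
Itgb5: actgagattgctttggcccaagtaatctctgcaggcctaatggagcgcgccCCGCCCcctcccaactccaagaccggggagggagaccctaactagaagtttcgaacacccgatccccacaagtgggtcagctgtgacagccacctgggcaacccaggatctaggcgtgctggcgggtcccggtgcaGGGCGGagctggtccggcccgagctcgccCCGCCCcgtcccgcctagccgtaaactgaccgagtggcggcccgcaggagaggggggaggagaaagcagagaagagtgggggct
Lama2: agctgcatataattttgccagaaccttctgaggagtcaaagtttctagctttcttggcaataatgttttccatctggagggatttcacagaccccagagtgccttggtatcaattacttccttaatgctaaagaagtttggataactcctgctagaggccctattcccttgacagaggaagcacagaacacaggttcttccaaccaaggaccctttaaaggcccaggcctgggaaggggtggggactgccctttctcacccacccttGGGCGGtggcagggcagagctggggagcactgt
Itga10: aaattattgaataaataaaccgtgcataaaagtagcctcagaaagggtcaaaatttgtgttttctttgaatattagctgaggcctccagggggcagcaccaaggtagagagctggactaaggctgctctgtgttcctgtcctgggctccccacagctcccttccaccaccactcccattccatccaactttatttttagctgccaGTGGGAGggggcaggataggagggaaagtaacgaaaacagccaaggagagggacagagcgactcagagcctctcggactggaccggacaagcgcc

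The Lamb1 window held 1 match to GCGGGGGCG, which overlapped 1 of its 2 matches to GGGCGG. The Itga10 window held 1 match to GTGGGAG, a motif found in 2 of the 21 member windows, the other being that of Itgav, and in 9.73% of all 32851 windows. GCGGGGGCG was found in 2.91% of all windows and GCGTGGGAG in 0.472%, the latter in no member window. GGGCGG occurred 3 times in the Itgb5 window, once in that of Lama2 and in 11 of the 21 member windows, against 35.7% of all windows. The GC content was 63.7% for Lamb1, 65.7% for Itgb5, 50.3% for Lama2 and 51.0% for Itga10, with a median of 52.7% over all windows. Most member windows lay above that median. The motif shares were not adjusted for GC content, so no excess of GGGCGG in members can be read from them. A match is a description of these letters and not a binding site.

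Of the integrin subunits, Itga6 had the largest change of all tested members. It encodes an alpha subunit that binds laminin with either Itgb1 or Itgb4 as partner and marks many epithelial, endothelial and germ cells. The wild-type arrays read 1.03, 0.960 and 1.08 and the knockout arrays 0.290, 0.171 and 0.260. The genotypes were far apart, and 1 knockout value lay under the limit of 0.217, so the knockout level was close to that of dim probes. Mean intensity went from 1.02 ± 0.0616 to 0.240 ± 0.0619 (SD, n = 3 each), which is 4.36-fold lower (log2 change -2.12 ± 0.24, SE, limma, adjusted p = 3.43e-05). With the knockout value under the limit set to it, a calculation added after the values were seen, Itga6 was 4.02-fold lower. Without knockout array 2 the log2 change was -1.90, a smaller fall, so 4.02 is not a lower bound. Of the 10999 tested genes, 37 fell at least as far (0.336%). Across all 14 alternative settings in which it was tested the call held, with log2 changes of -1.90 to -2.28.

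The other laminin-binding alpha subunits gave less information. Itga3, a subunit of podocytes and epithelia, had values of 0.624, 0.200 and 0.417 in wild type and 0.134, 0.224 and 0.238 in the knockout. Its genotypes overlapped because of the second wild-type array, and the log2 change was -0.96 ± 0.47 (adjusted p = 0.121). Of its 6 values 2 lay under the limit for dim probes. Itga3 passed in 1 of 14 alternatives, the fit without wild-type array 2 (log2 change -1.41, adjusted p = 0.0341, limma). Without wild-type array 1 the log2 change was -0.59 (adjusted p = 0.460), and without wild-type array 3 it was -0.88 (adjusted p = 0.283). Itga7, the laminin receptor subunit of muscle, was not tested, with 5 of 6 values under the limit. Itgb4, the partner of Itga6 in hemidesmosomes, read 0.693, 0.830 and 0.635 against 0.579, 0.954 and 0.568, with a log2 change of -0.07 ± 0.21 (adjusted p = 0.810). The spread of Itgb4 between knockout arrays was larger than the difference between genotypes.

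Itgb1, the beta subunit shared by most matrix-binding integrins, had a pair of tested probes that disagreed. Probe 2971 read 3.13, 2.65 and 2.77 in wild type and 2.86, 3.84 and 3.70 in the knockout, a log2 change of 0.27 ± 0.12 (adjusted p = 0.0832). Probe 20248 read 3.34, 3.42 and 3.35 in wild type and 2.87, 1.54 and 1.87 in the knockout, a log2 change of -0.74 ± 0.17 (adjusted p = 0.00530). The disagreement lay in knockout arrays 2 and 3, where the first probe was high and the second low, and was smallest in knockout array 1. Without knockout array 1 both probes passed, in opposite directions (probe 2971 at 0.41, adjusted p = 0.000934). The log2 ratio of probe 2971 to probe 20248 was -0.37 to -0.09 in wild type and -0.01 to 1.32 in the knockout (difference 1.01, exact p = 0.10, adjusted p = 0.20). No single direction can therefore be given for Itgb1. In the counts of genes it is represented by probe 2971, which did not pass. That probe was the brighter over the arrays of both genotypes together. In wild type alone probe 20248 was the brighter (mean 3.37 against 2.85). Counted by probe 20248, Itgb1 would be called lower, so its place in the counts depends on this choice.

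Among the subunits of receptors for vitronectin and fibronectin, Itgb5 fell. It read 4.04, 3.95 and 4.03 in wild type and 2.61, 3.04 and 3.07 in the knockout, without overlap. Mean intensity went from 4.01 ± 0.0506 to 2.91 ± 0.260 (SD, n = 3 each), 1.38-fold lower (log2 change -0.47 ± 0.09, adjusted p = 0.00124, limma). Its partner Itgav, the alpha subunit common to the vitronectin receptors, read 30.1, 27.7 and 29.8 against 30.1, 33.9 and 35.6 on probe 1055. The lowest knockout value only just cleared the highest wild-type value, and the log2 change of 0.18 ± 0.08 did not pass (adjusted p = 0.0881). Under quantile normalization the change of Itgav was -0.02, so its sign depended on the scaling. Without knockout array 1 it passed at 0.25 (adjusted p = 0.00290). A second, dim Itgav probe was not tested. Itga5, the classical fibronectin receptor subunit, had a log2 change of 0.16 ± 0.51, with values of 0.122 to 0.352 in wild type and 0.166 to 0.292 in the knockout. Itga8, the nephronectin receptor subunit needed for kidney induction, and Itgb3 were too dim to be tested.

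Itga10, a collagen-binding alpha subunit of cartilage, was the only integrin gene called as higher. It read 0.334, 0.350 and 0.381 in wild type and 0.605, 0.537 and 0.537 in the knockout, where all 3 values lay above the wild-type range. The gain was 1.58-fold (log2 change 0.66 ± 0.21, adjusted p = 0.0283, limma). No value lay under the limit for dim probes of 0.217, but the wild-type values were not far above it, so the fold is uncertain. The call ended in 5 of 14 alternatives, among them cyclic loess normalization (adjusted p = 0.0654), array number as a block (0.0532) and the fits without wild-type array 1 (0.0843), wild-type array 2 (0.0724) or knockout array 1 (0.0756). Itga2, another collagen-binding subunit, was not tested, and 2 of its 6 values were at or below 0. Itga9, a receptor subunit for tenascin and other ligands, had a log2 change of -0.02 ± 0.16 (adjusted p = 0.944), with 1.15, 0.898 and 1.01 in wild type and 0.801, 1.11 and 1.14 in the knockout. Itga4, whose dimers bind fibronectin and Vcam1, read 0.177, 0.158 and 0.151 in wild type and 0.395, 0.225 and 0.188 in the knockout, but its mean was under the limit and it was not tested.

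Integrins of blood cells did not pass or were not tested. Itgal, the alpha subunit of the lymphocyte integrin LFA, had a log2 change of 0.07 ± 0.25, Itgax, of dendritic cells and macrophages, 0.23 ± 0.12, and Itgb2, their common beta subunit, 0.08 ± 0.49. The adjusted p-values were 0.854, 0.159 and 0.916. Itgae, of T cells at epithelia, had a log2 change of 0.35 ± 0.29 (adjusted p = 0.349) on 1 probe and a second probe too dim to be tested. Itgb2l, an Itgb2-like gene, had a log2 change of -0.02 ± 0.15. Itgam, of macrophages, was not tested, with 0.0904, 0.188 and 0.189 in wild type and 0.0573, 0.0410 and 0.0342 in the knockout, all under the limit. Leukocyte markers rose at 4 of 12 tested genes and fell at 1, with summed intensities of 20.1 to 20.7 in wild type and 20.6 to 23.7 in the knockout, which overlapped. Itga2b, the alpha subunit of the platelet fibrinogen receptor, read 0.157, 0.140 and 0.0752 in wild type and 0.252, 0.309 and 0.134 in the knockout and was not tested. Platelet and megakaryocyte markers rose at 4 of 5 tested genes, with summed intensities of 19.6 to 21.0 against 26.1 to 31.0. The share called was 41.7% of leukocyte and 80% of platelet markers, beside 44.1% of all tested genes. Itgb7, of gut-homing lymphocytes, had 6 values under the limit. In all, 12 member probes were not tested, and 62 of their 72 values lay under 0.217.

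**Figure D2:**
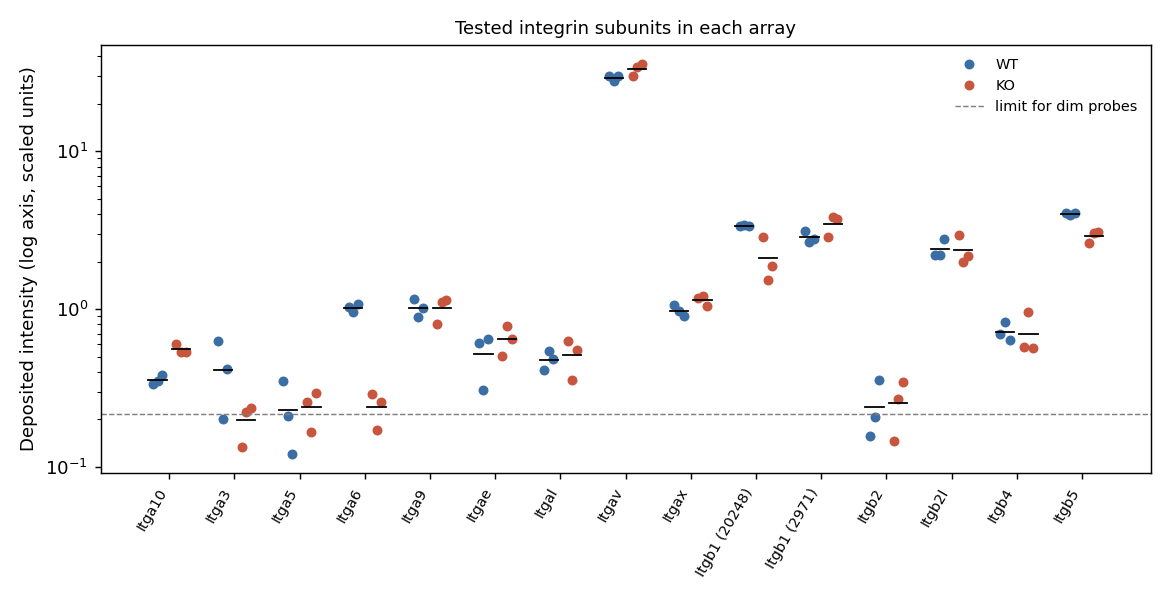
Deposited intensity (log axis) of the 15 tested integrin probes on each array, with the mean of each genotype as a black bar and the limit for dim probes as a dashed line. Itga6 and Itgb5 are lower on every knockout array and Itga10 is higher, while the 2 probes of Itgb1 (2971 and 20248) go in opposite directions.

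Of the 14 tested integrin genes, 2 fell (Itga6 and Itgb5), 1 rose (Itga10) and 11 did not pass, or 21.4% called beside 44.1% of all tested genes. Wild-type and knockout values were fully separate at 4 of these 14 genes, 2 higher and 2 lower, and at 4 of the 7 laminin genes, 1 higher and 3 lower. Of all tested genes 54.8% were separate in this way, 31.7% higher and 23.1% lower. Taking probes in place of genes, 3 of 15 integrin probes fell and 1 rose. The changes of most members lay within the range that holds the middle of all tested genes, from -0.62 at the 10th percentile to 0.57 at the 90th. Outside it lay Itga6, Lamc1, Itga10, Itga3 and Itgb1 probe 20248.

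**Figure D3:**
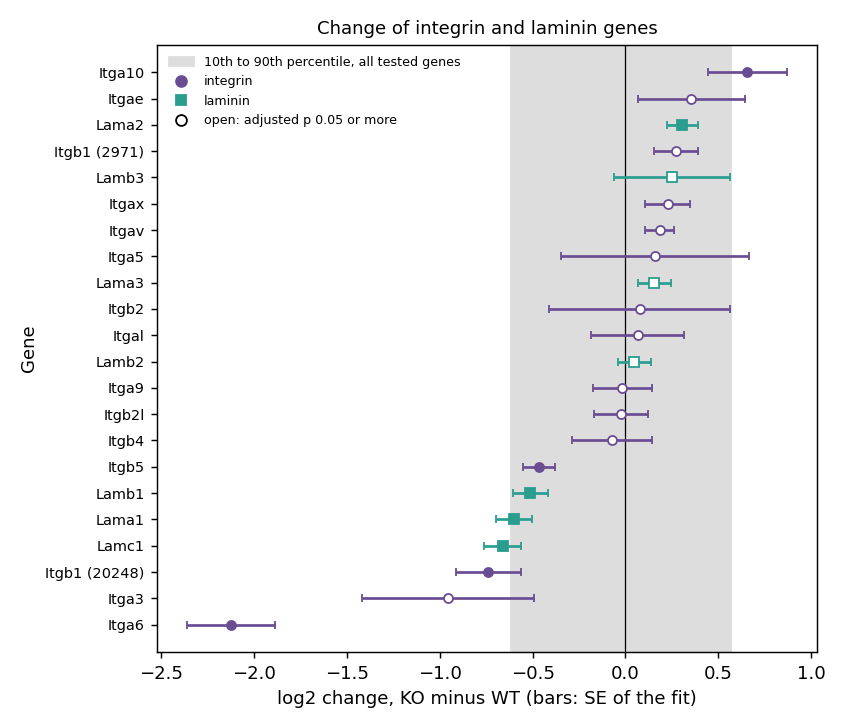
Log2 change (KO minus WT) with its SE for the 22 tested member probes, integrins as circles and laminins as squares, filled where adjusted p was under 0.05. The grey band spans the 10th to the 90th percentile of all 10999 tested genes (-0.62 to 0.57). Itga6 at -2.12 stands farthest from 0.

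Genes for matrix ligands and basement membrane partners were taken from a list of 35 genes, of which 28 were on the array and 22 were tested. Of these, 9 fell, 2 rose and 11 did not pass (50% called beside 44.1% of all tested genes, median log2 change -0.31 beside 0.08). The largest decrease was in Bcam, the Lutheran receptor for laminin, at 8.66, 9.05 and 8.58 in wild type and 4.31, 4.25 and 4.35 in the knockout, 2.04-fold lower (log2 change -1.03 ± 0.07, adjusted p = 1.26e-06, limma). Col4a1, the main type IV collagen chain, read 9.10, 10.2 and 10.3 against 4.91, 5.19 and 5.32, 1.92-fold lower (adjusted p = 4.71e-06). Its partner Col4a2 was 1.51-fold lower, and Col4a6 was 1.67-fold lower. In these genes too no knockout value reached the wild-type range. Cdh1, the epithelial cadherin and counter-receptor of Itgae, was 1.87-fold lower.

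The nidogens, which link laminin to type IV collagen, fell by similar amounts. Nid1 was 1.29-fold lower (log2 change -0.37 ± 0.09, adjusted p = 0.00441, limma) and Nid2 1.30-fold lower (adjusted p = 0.00194). Sparc, a collagen-binding matrix protein, and Icam2, an integrin counter-receptor of endothelium, were the other 2 genes that fell. Vtn, which encodes the integrin ligand vitronectin, read 0.311, 0.234 and 0.359 in wild type and 1.86, 2.36 and 2.45 in the knockout, and Egfl6, an integrin-binding matrix protein gene, had a log2 change of 0.86 ± 0.32 (adjusted p = 0.0461). These were the 2 genes that rose, and the Egfl6 call was close to the threshold. Egfl6 read 0.423, 0.223 and 0.214 in wild type and 0.450, 0.484 and 0.557 in the knockout. Of its wild-type values 1 lay under the limit for dim probes, so the size of its gain is uncertain. Hspg2, which encodes perlecan, had a log2 change of 0.15 ± 0.25, Npnt, the nephronectin gene, -0.36 ± 0.24, Tnc, the tenascin C gene, -0.18 ± 0.08 and Vcam1, the counter-receptor of Itga4 dimers, 0.31 ± 0.20, and none of these passed. Dag1, the dystroglycan gene, was too dim to be tested.

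**Figure D4:**
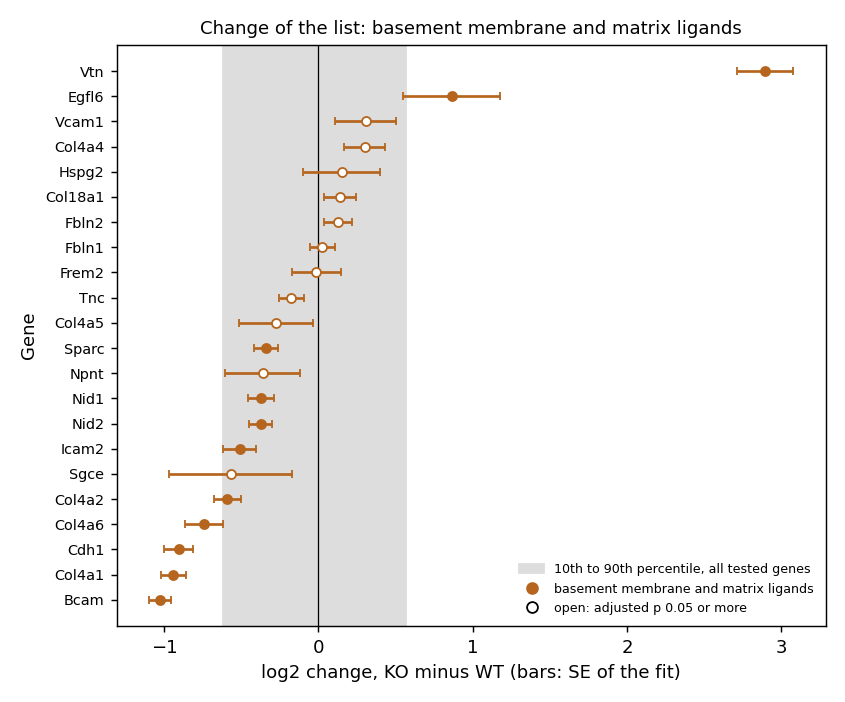
Log2 change (KO minus WT) with its SE for the 22 tested genes of the basement membrane and matrix ligand list, filled where adjusted p was under 0.05, over the 10th to 90th percentile of all tested genes in grey. Bcam, Col4a1 and Cdh1 are lowest and Vtn is highest.

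On the inner side of the membrane, integrins are coupled to actin by talin, kindlin and the complex of Ilk, and tetraspanins bind them within the membrane. Of 36 tested genes of this list, 9 fell, 11 rose and 16 did not pass (55.6% called beside 44.1% of all tested genes, median log2 change 0.09 beside 0.08). Cd151, the tetraspanin that binds laminin-binding integrins directly, read 3.90, 4.67 and 4.71 in wild type and 2.08, 1.90 and 2.34 in the knockout. It was 2.10-fold lower (log2 change -1.07 ± 0.11, adjusted p = 1.39e-05, limma). Itgb3bp, first described as a partner of Itgb3 and also a centromere protein, had the largest decrease of the list at 2.68-fold (adjusted p = 1.83e-05).

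Fermt3, the kindlin of blood cells, read 5.72, 5.28 and 5.36 in wild type and 13.2, 13.8 and 11.1 in the knockout, 2.32-fold higher (adjusted p = 2.01e-06, limma). The platelet markers above moved in the same direction, and their part in this gain was not tested. Fermt2, the kindlin of most other tissues, had a log2 change of 0.04 ± 0.08 (adjusted p = 0.717). Tln2, a talin of muscle and brain, rose 2.22-fold (0.236, 0.200 and 0.391 against 0.463, 0.765 and 0.573, adjusted p = 0.0117, limma). Of its wild-type values 1 lay under the limit for dim probes, so the fold is uncertain. Tln1, the widely expressed talin, had a log2 change of 0.09 ± 0.09. Itgb1bp2, the muscle protein melusin that binds the tail of Itgb1, was 1.58-fold higher (adjusted p = 5.43e-05). Genes of the Ilk complex went different ways. Ilk and Parva, at 0.14 ± 0.07 and 0.09 ± 0.08, did not pass, nor did Parvb and Parvg. Lims1 fell (log2 change -0.44 ± 0.12, adjusted p = 0.0120, limma), as did Rsu1 (-0.98 ± 0.28, adjusted p = 0.0155). Lims2 rose (0.45 ± 0.08, adjusted p = 0.000917). Cd47, the thrombospondin receptor associated with integrins, had a log2 change of -0.22 ± 0.10 (adjusted p = 0.0852).

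**Figure D5:**
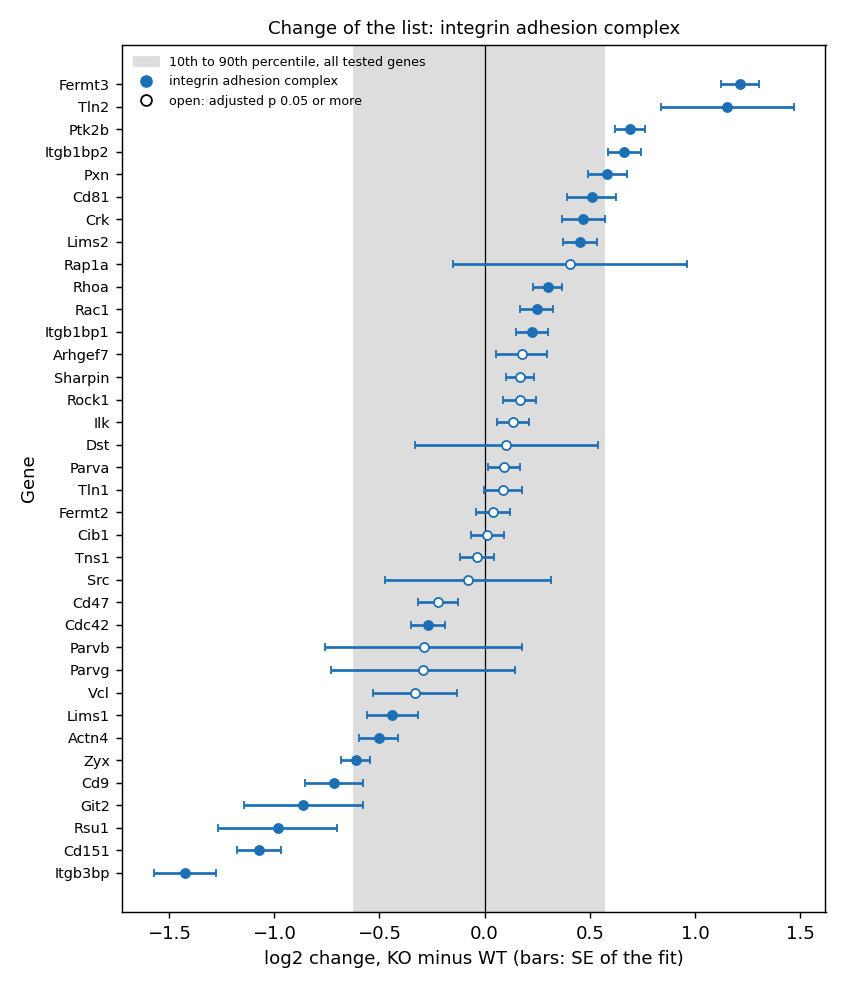
Log2 change (KO minus WT) with its SE for the 36 tested genes of the integrin adhesion complex list, filled where adjusted p was under 0.05, over the 10th to 90th percentile of all tested genes in grey. Itgb3bp and Cd151 are lowest, Fermt3 and Tln2 highest, and Ilk, Parva, Tln1 and Fermt2 lie near 0 with open symbols. Lims1 and Rsu1 are filled below 0 and Lims2 is filled above 0.

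Markers of cells that carry laminin receptors and basement membranes were measured on the same arrays. Endothelial markers fell at 4 of 11 tested genes and rose at 1, with summed intensities of 85.5 to 87.8 in wild type and 84.0 to 85.8 in the knockout, or 55.0 to 55.5 and 45.2 to 49.5 without Kdr. Coelomic epithelium and mesothelium markers fell at 5 of 10 and rose at 1, with sums of 92.0 to 95.8 against 78.1 to 80.2. That difference was carried by Aldh1a1 (17.1 against 2.13), without which the sums overlapped at 75.7 to 78.0 and 75.9 to 78.2. Nephric duct and tubule markers went both ways, 2 higher and 2 lower of 7, with sums of 32.6 to 34.7 against 36.3 to 39.1, or 23.1 to 25.2 against 19.9 to 21.0 without Gata3. Interstitial mesenchyme markers fell at 6 of 12 and rose at 3, with sums of 342 to 347 against 360 to 380, and of 261 to 264 against 228 to 245 without Pdgfra, the gene that differed most. The shares called were 45.5% (endothelial), 60% (coelomic), 57.1% (nephric) and 75% (interstitial), beside 44.1% of all tested genes. The endothelial share was thus close to that of the array as a whole. Cdh5, Msln, Gpm6a and Pax8 were among the markers under the limit for dim probes. The part of these lists in the lower levels of Itga6, Lama1, Lamb1 and Lamc1 was not tested.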

How the data were processed

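Biotin-labelled total RNA was measured on CodeLink 20k mouse arrays (Amersham, 1 colour), per the labels and the series description. The authors deposited linear spot intensities. How they were background-corrected or scaled, and by which software, is not given in the sources used here. Values under an intensity of 0.0811 (5th percentile of positive values) were raised to it before log2 transformation, with no further normalization because the log2 medians of the arrays differed by 0.0153. Probes with a value on at least 2 arrays per genotype and a mean above the 25th percentile were tested. Genotype was the only term in limma 3.58.1 (R 4.3.3, lmFit, then eBayes with trend, two-sided, Benjamini-Hochberg over all tested probes). The fit was tested on simulated data. Means ± SD are of intensities, and folds are back-transformed log2 changes.

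Probe names came from GEO's platform annotation (15120 with 1 symbol, 38 with several, 5131 not listed), updated to RefSeq GRCm38.p6. Every member is named, and from each partner list the 4 called genes of largest change and, as binders of members, Nid1, Hspg2, Dag1, Bcam, Fn1, Vtn, Npnt, Spp1, Tnc, Vcam1, Cd151 and Cd47. Sums of lists without 1 gene were added after the values were seen. Fn1 and Spp1 had no named probe here. Other named list genes were chosen after their values were seen. Members and lists were chosen with earlier results of these data known. The alternatives tried were other normalizations, floors, filters, variance priors and probe rules, leaving out each array, and array number as a block.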

Additional observations from a re-analysis of the deposited data

How the results depend on the processing

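The calls of Itga6, Itgb5, Lama1, Lamb1, Lamc1 and Itgb1 probe 20248 held in every alternative in which they were tested. Over the 22 member probes, 311 of 320 values from alternatives kept their side of the threshold, 6 lost a call (Itga10 and Lama2), 3 gained one and no called value reversed. Integrin genes called higher were 0 under cyclic loess normalization and under the filter at the median probe, where Itga10 was no longer tested. That filter also gave 1 lower integrin gene, with Itga6 not tested. Leaving out 1 array gave 0 to 2 higher integrin genes (0 without wild-type array 1 or 2, 2 without knockout array 1) and 0 to 1 higher laminin gene (0 without wild-type array 1). Matrix ligands called higher were 1 under quantile normalization, cyclic loess normalization and no filter, 0 under the filter at the median probe, and 1 to 4 on leaving out 1 array (1 without wild-type array 2 or 3 or knockout array 3, 4 without knockout array 1).

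Array numbers did not pair the samples: deviations of same-numbered arrays correlated at r = 0.00049, -0.02 and -0.01. With array number as a replicate block, 0 integrin genes and 1 matrix ligand gene were called higher, and 6019 probes were called in all beside 6221. Of the called probes 58.3% were higher, 50.7% under quantile and 49.5% under cyclic loess normalization. With 6 arrays and no detection flags, no change was tested for the 10 member genes with no tested probe. The size of the Itga6 fall is uncertain, because its knockout values lay near the limit for dim probes.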
